A study of Homo sapiens with 6 samples.

Results

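The terminal stretches of the human autosomes were examined in RKO cells, a colon cancer cell line, by ATAC-seq. Merging the peaks of 6 samples wherever they overlapped by 1 bp or more gave 102784 regions, of which 99750 lay on chromosomes 1 to 22. A region was called subtelomeric when its midpoint lay within 2 Mb of the first or the last merged region of its chromosome, with the last alone used for the acrocentric chromosomes 13, 14, 15, 21 and 22. This gave 39 chromosome ends, 17 of short arms and 22 of long arms, 78 Mb in all and 5508 regions. The next 8 Mb of the same ends, called inner stretches here, held 14538 regions over 312 Mb. The rule used position and peak calls, and no peak value or treatment. At the limit, the last region inside was on 10p at 2000 kb with a mean value of 26.0, and the first outside was on 16p at 2000.02 kb with a mean value of 91.3.

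Of the 6 samples, 3 were treated with the solvent DMSO and 3 with aphidicolin (APH) at 0.2 µM for 16 h. APH inhibits the replicative DNA polymerases and at low dose slows replication forks. All samples came from RKO cells of 1 line, so chromosome gains or losses of that line are shared by both groups and enter every comparison along the genome. The study speaks of 3 independent experiments, but the labels do not say which samples shared an experiment, so the p-values given measure the spread between these samples, part of which may be technical. The deposited value of a peak is a coverage signal, read here as the average over the peak. The methods describe coverage maps of reads lengthened to 200 bp, in bins of 32 nt, and state no scaling of the values to library size. Total reads are not part of the peak lists, so depth is unknown, and values were read as deposited and also relative to the sample. DMSO samples 1, 2 and 3 had 3554, 4091 and 3801 peaks in the terminal stretches, and APH samples 1, 2 and 3 had 4099, 4329 and 3900.

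A chromosome ends in telomere repeats, bound by the shelterin proteins, next to which lie subtelomeres, blocks of sequence shared in part between chromosomes. Most human subtelomeric bands are rich in genes and in GC, while a few carry long gene-poor stretches with genes of the nervous system, odour receptors or the D4Z4 array of 4q. ATAC-seq reads sites where the Tn5 transposase can enter chromatin, which include promoters and enhancers in use. Only uniquely mapped reads were kept by the authors, so reads that fit several ends equally well were dropped. The outermost region found is the outermost peak called from the reads kept, and may lie inside the limit of unique mapping. On the short arms the outermost region began between position 9941, on 7p, and 201973, on 19p (hg38 per the labels).

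The promoters that carry the findings are shown as the 250 bases before the start of the gene, 5′ to 3′ on the gene's own strand, from RefSeq (GRCh38.p14). Capitals mark the GC box GGGCGG, which binds SP and KLF factors, and the CCAAT box, which binds NF-Y, each searched on both strands (as CCGCCC and ATTGG on the other). The telomere repeat unit TTAGGG was searched too and is in none of these windows. The first set belongs to the strongest promoter regions of the terminal stretches, MAN1B1 (chr9:137086735-137086984, plus strand), TUBB4B (chr9:137241037-137241286, plus strand), ANKRD11 (chr16:89490562-89490811, minus strand) and TPRN (chr9:137200742-137200991, minus strand).
MAN1B1: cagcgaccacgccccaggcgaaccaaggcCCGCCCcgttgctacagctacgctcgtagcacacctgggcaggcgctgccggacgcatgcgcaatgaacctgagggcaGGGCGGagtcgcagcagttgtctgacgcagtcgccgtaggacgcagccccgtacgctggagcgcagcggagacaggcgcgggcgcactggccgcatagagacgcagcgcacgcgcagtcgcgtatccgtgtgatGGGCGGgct
TUBB4B: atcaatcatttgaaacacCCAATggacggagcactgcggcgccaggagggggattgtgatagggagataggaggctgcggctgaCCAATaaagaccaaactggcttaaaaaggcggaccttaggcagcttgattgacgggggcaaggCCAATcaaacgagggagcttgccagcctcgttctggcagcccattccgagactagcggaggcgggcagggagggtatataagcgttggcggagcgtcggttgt
ANKRD11: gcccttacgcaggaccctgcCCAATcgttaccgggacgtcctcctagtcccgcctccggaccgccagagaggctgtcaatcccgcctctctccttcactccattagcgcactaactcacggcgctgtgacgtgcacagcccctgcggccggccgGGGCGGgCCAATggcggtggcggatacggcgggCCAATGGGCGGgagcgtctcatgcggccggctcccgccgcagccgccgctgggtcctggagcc
TPRN: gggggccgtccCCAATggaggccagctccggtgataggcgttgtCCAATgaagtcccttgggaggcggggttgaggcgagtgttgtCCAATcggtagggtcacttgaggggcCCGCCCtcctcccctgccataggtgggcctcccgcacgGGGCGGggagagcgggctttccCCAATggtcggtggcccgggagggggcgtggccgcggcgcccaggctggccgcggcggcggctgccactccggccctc

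The second set belongs to promoters whose value was lower with APH, 2 of them, NDOR1 (chr9:137205450-137205699, plus strand) and MKNK2 (chr19:2051245-2051494, minus strand), among the smallest p of the terminal regions, and 3 of replication and nucleotide genes, POLE (chr12:132687343-132687592, minus strand), RPA1 (chr17:1829755-1830004, plus strand) and TYMS (chr18:657403-657652, plus strand). In the POLE window the run CCAATTGG holds the CCAAT box on both strands, overlapping.
NDOR1: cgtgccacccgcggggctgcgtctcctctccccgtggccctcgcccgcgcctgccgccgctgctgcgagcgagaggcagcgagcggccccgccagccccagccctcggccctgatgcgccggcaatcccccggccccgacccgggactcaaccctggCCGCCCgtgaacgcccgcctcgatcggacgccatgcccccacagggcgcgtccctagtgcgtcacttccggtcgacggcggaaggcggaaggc
MKNK2: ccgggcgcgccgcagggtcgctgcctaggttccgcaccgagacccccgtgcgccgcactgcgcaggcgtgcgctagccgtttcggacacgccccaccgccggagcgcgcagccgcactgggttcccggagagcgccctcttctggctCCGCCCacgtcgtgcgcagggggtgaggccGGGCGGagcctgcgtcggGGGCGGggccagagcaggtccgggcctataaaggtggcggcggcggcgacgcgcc
POLE: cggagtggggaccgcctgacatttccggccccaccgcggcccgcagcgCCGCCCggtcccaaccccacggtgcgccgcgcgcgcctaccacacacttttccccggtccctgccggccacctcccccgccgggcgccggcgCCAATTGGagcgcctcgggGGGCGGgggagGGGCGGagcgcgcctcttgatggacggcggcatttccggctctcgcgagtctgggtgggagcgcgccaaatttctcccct
RPA1: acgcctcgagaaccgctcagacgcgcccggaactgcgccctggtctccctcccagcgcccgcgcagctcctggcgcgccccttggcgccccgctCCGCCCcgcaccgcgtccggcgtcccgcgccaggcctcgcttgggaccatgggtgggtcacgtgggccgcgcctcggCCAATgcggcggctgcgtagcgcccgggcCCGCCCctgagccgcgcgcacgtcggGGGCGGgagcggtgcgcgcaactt
TYMS: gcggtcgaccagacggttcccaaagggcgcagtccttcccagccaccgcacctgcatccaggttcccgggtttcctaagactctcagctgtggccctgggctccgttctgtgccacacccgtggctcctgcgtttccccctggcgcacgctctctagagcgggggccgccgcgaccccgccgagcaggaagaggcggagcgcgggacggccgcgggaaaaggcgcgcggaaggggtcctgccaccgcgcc

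The last set is of 2 genes, from the epithelial and the tissue-restricted list, that had no region within 1 kb of the start in any sample, MUC2 (chr11:1074624-1074873, plus strand), the main secreted mucin of the colon, and CNTN6 (chr3:1092774-1093023, plus strand), a neuronal adhesion protein.
MUC2: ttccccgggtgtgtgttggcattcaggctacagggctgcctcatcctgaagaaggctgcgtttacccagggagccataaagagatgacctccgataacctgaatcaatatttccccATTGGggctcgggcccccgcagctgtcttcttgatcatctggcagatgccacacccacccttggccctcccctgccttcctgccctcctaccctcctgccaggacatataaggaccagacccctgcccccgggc
CNTN6: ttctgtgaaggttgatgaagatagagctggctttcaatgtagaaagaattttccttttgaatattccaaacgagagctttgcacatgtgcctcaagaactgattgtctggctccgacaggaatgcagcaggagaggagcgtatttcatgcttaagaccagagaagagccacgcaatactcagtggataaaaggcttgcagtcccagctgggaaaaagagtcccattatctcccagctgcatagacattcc

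The 9 windows with a region hold between 15 CpG, at TUBB4B, and 42, at RPA1, and the regions cover all 250 bases except at NDOR1, where 220 are covered. MUC2 has 6 CpG and CNTN6 has 4. TYMS, with 28 CpG, has neither box in these letters. Over the 1309 promoters of 982 coding genes of the terminal stretches, the median GC content of the 250 bases was 69.2% with a median of 24 CpG, against 64.0% and 18 for 3068 inner promoters and 62.0% and 17 for all 21155 promoters of chromosomes 1 to 22 in the table. A GC box was in 65.9% of terminal, 57.9% of inner and 54.0% of all promoters, and a CCAAT box in 28.9%, 30.8% and 32.4%. TTAGGG or its complement was in 5.81% of terminal, 8.08% of inner and 7.97% of all promoters. A match is a description of the letters and not a site in use.

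Accessible sites were denser in the terminal stretches than in the inner ones in every sample. Terminal density was 45.6, 52.4 and 48.7 peaks per Mb in DMSO samples 1, 2 and 3 and 52.6, 55.5 and 50 in APH samples 1, 2 and 3. Inner density was 29.8, 34.5 and 30.2 in DMSO and 35.8, 37.8 and 32.4 in APH, so no inner value reached the lowest terminal one. The ratio of terminal to inner density was 1.53, 1.52 and 1.62 in DMSO and 1.47, 1.47 and 1.54 in APH, and was highest in sample 3 of each group. The mean log2 ratio over the 6 samples was 0.61 ± 0.051 (SD), with p = 0.03125 in a two-sided exact sign-flip permutation test, the smallest p that 6 samples allow. The samples share a genome, so this test shows only that the ratio lies on the same side of 1 in all of them, and the ends, given next, show how far it holds along the genome.

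The density did not decline evenly from the end. With DMSO it was 47.8 ± 3.89 peaks per Mb (SD, n = 3) in the outermost 0.5 Mb, 51.8 ± 2.92 between 0.5 and 1 Mb and 46.9 ± 3.39 between 1.5 and 2 Mb, and then 35.5 ± 2.58 between 2 and 3 Mb. Beyond 5 Mb every 1 Mb step lay between 27.0 and 30.7. With APH the same steps were 51.8 ± 2.90, 57.3 ± 3.31, 50 ± 2.17 and 39.5 ± 3.07.

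**Figure D1:**
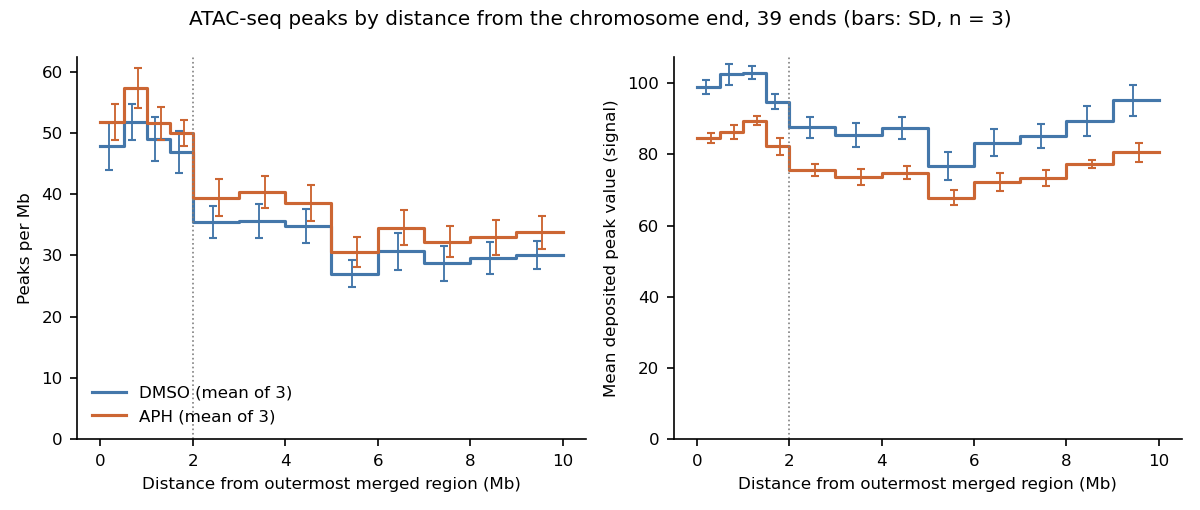
Peaks per Mb (left) and mean deposited peak value in signal units (right) against distance in Mb from the outermost merged region, pooled over 39 chromosome ends. Lines are means of 3 DMSO (blue) or 3 APH (orange) samples, bars are SD and the dotted line marks 2 Mb. Density was 46.9 (DMSO) and 50 (APH) per Mb in the last step before 2 Mb and 35.5 and 39.5 in the first step after it, and the mean values with APH lay below those with DMSO at every distance.

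Coding genes were also denser there. Starts of 1281 protein-coding genes lay in the terminal stretches, 16.4 per Mb against 8.89 per Mb in the inner ones, a ratio of 1.85. Promoter peaks, those within 1 kb of a gene start, made up 30.5%, 27.9% and 29.5% of terminal peaks in DMSO samples 1, 2 and 3 and 27.5%, 26.2% and 29.1% in APH samples 1, 2 and 3, against 20.3% to 23.6% of inner peaks. For promoter peaks alone the density ratio was 1.99 ± 0.037 (SD, n = 3) with DMSO and 1.93 ± 0.030 with APH. For peaks in gene bodies it was 1.52 ± 0.070 and 1.47 ± 0.041. For intergenic peaks it was 1.26 ± 0.043 and 1.22 ± 0.038. All 6 samples had a ratio above 1 in each class, so intergenic sites too were denser near the ends, by a smaller factor. A region lay within 1 kb of a start for 874 of the 1281 terminal genes (68.2%) and for 1750 of 2774 inner genes (63.1%). A region with a peak in all 6 samples lay there for 57.3% and 55.4%.

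The peaks of the terminal stretches also had the higher values. Mean value was 97.5, 101 and 101 in DMSO samples 1, 2 and 3 and 83.8, 86.9 and 86.6 in APH samples 1, 2 and 3, against 82.7, 89.8 and 86.9 and 72.8, 76.6 and 74.1 in the inner stretches. The ratio was 1.16 ± 0.026 (SD, n = 3) with DMSO and 1.15 ± 0.017 with APH, a mean log2 ratio of 0.21 ± 0.025 over the 6 samples with p = 0.03125 in the exact sign-flip test. With each end given the same weight, the mean log2 ratio was 0.08. It was 0.13 without chromosome 8, and 0.08 when only peaks at or above the median value were kept. It also depended on the kind of peak. At promoters the ratio was 1.01 ± 0.012 with DMSO and 1.01 ± 0.011 with APH, with 1 DMSO sample below 1 (p = 0.0625 in the exact sign-flip test). In gene bodies it was 1.19 ± 0.042 and 1.19 ± 0.023, and between genes 1.11 ± 0.015 and 1.10 ± 0.024, above 1 in all 6 samples in both (p = 0.03125 in the exact test). The split by kind of peak was added after the data were seen.

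**Figure D2:**
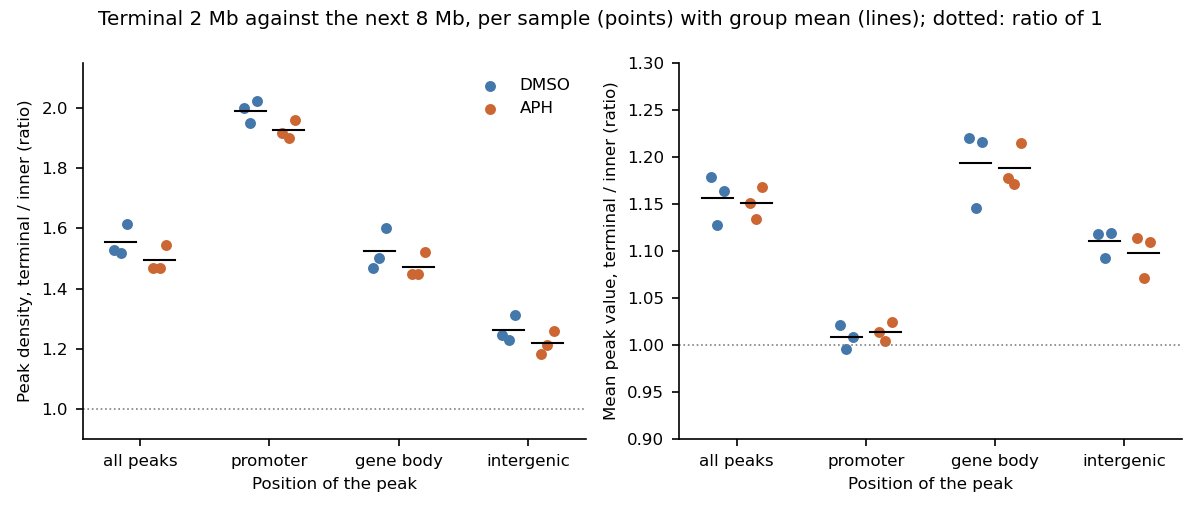
Ratio of terminal to inner peak density (left) and of terminal to inner mean peak value (right) in each sample, for all peaks and for promoter, gene body and intergenic peaks. Points are samples (DMSO blue, APH orange), short lines are group means and the dotted line is a ratio of 1; the axes start at 0.9. Promoter peaks had the highest density ratio, near 2.0 with DMSO, and a value ratio of 1.01, with gene body peaks at a value ratio of 1.19.

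The 39 ends differed by a factor of 11 in density, from 14 merged regions per Mb on 4q to 154 on 9q, with a median of 69.0. The densest were 9q, 8q (142.5), 19p (141), 20q (136.5) and 16p (113.5), all ends with many coding genes: 73, 73, 76, 54 and 92 starts. The sparsest were 4q, 3p (15.5), 6p (27.0), 18p (29.0) and 9p (34.0), with 3, 2, 7, 10 and 10 starts. Over the 39 ends, density went with coding starts per Mb (Spearman correlation 0.83, Pearson correlation 0.81), a description over neighbouring stretches of 1 genome. Some ends departed from it, such as 1q, with 56 starts and 36.0 regions per Mb, and 19q, with 70 starts and 58.5. Density was above that of the inner stretch at 34 ends, at 32 of them in all 6 samples, and below it in all 6 samples at 5, 4q, 3p, 6p, 19q and 7q. The ratio to the inner stretch was highest on 5p (4.33), where 72.0 regions per Mb were followed by 16.6, and next on 20q (3.09) and 13q (2.88).

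The value did not rise with density everywhere. The highest mean value over 6 samples was on 8q (169), then 9q (133) and 19q (123), and the lowest on 3p (29.7), 2p (44.6) and 6p (49.9). The end of 8q had 178, 180 and 188 in DMSO samples 1, 2 and 3 and 153, 156 and 159 in APH samples 1, 2 and 3, so its lowest APH sample stood above the 9q mean over 6 samples. The mean value exceeded that of the inner stretch at 22 ends, at 19 of them in all 6 samples, and lay below it in all 6 samples at 14. The end of 19q had fewer regions per Mb than its inner stretch (58.5 against 94.1) and a higher mean value (123 against 104).

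**Figure D3:**
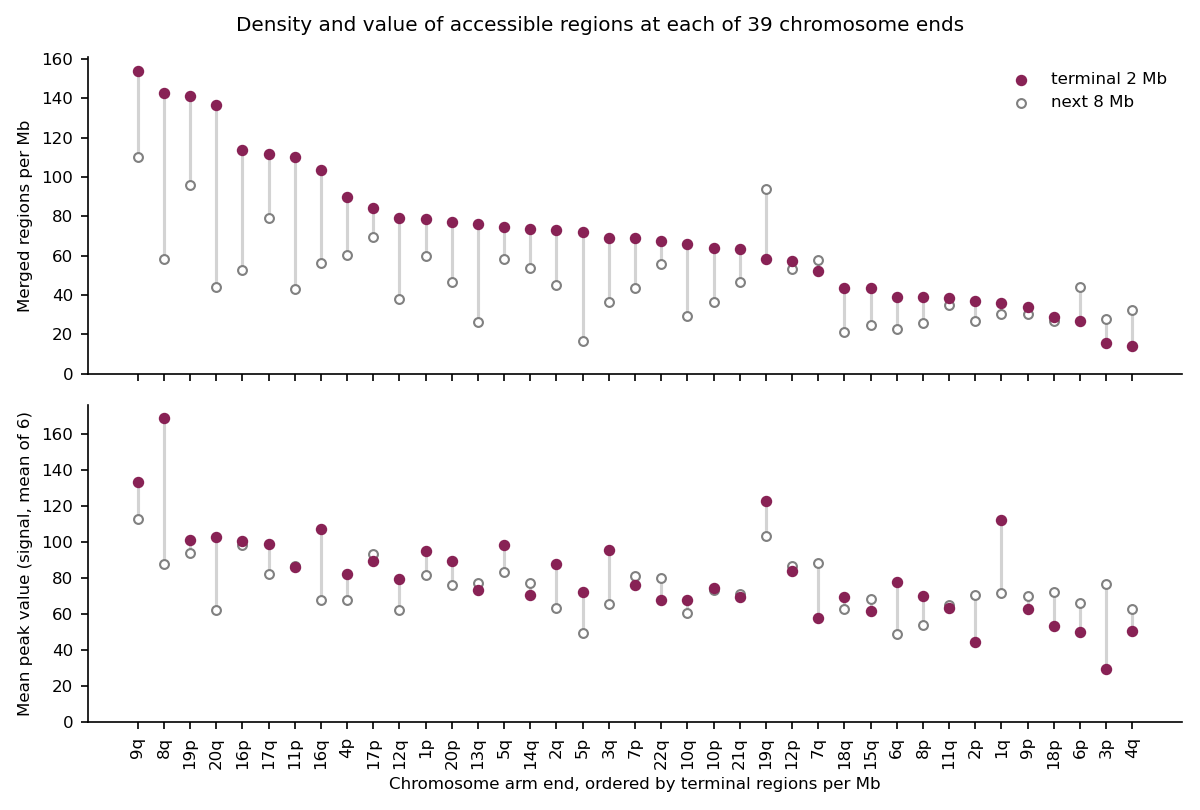
Merged regions per Mb (top) and mean peak value in signal units over 6 samples (bottom) at each of the 39 chromosome ends, ordered by density. Filled points are the terminal 2 Mb, open points the next 8 Mb of the same end. The filled point is the higher one at 34 ends for density and at 22 for value, and 8q has the highest value, 169.

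The 8 terminal regions of highest mean value lay on 8q, 9q and 16q. The strongest was 28.1 kb from the nearest coding start used, that of PLEC, which encodes the cytoskeletal linker plectin (chr8:143948311-143948937). Its values were 705, 869 and 880 in DMSO samples 1, 2 and 3 and 678, 757 and 670 in APH samples 1, 2 and 3. A start inside a gene that is not among those used would not be seen here. Of the other 7, 5 were at promoters. These are MAN1B1, an endoplasmic reticulum mannosidase (mean value 614), TUBB4B, a beta tubulin (569), ANKRD11, a chromatin regulator (529), TPRN, an actin-associated protein of stereocilia (520), and TRAF2, an adaptor of tumour necrosis factor receptors (520). The remaining regions on 8q lay 6.87 kb from the start of GPIHBP1, which carries lipoprotein lipase (590), and 23.9 kb from that of MAFA, a transcription factor of the insulin gene (492). Over the 5508 regions the median of the mean value was 48.5 with a highest of 760, against 39.7 and 703 in the inner stretches.

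The gene lists differed in how many of their promoters had a called region. Over all coding genes of the terminal stretches, 68.2% had a region within 1 kb of a start, beside which the counts below are read. Of 27 housekeeping genes with a start in a terminal stretch, all 27 had a region within 1 kb of it, 25 of these in all 6 samples, with mean values from 74.0 (NOC2L, a nucleolar protein) to 379 (PUF60, a splicing factor on 8q). Of 36 tissue-restricted genes, 27 had none, including the odour receptors OR4F5, OR4F17 and OR4F21, the defensins DEFB125 and DEFB126, the neuronal adhesion genes CHL1 and CNTN6, and DUX4 of 4q. OR4F genes and DUX4 have near-identical copies elsewhere, where uniquely mapped reads can be lacking, so a missing region there does not say that the site was closed. The 9 with a region include MC1R, the melanocortin receptor (412), whose start is close to that of the tubulin gene TUBB3 (288), and FRG1 of 4q (149). Of 14 mucin and secreted or epithelial genes, 6 had none, including MUC2 and SLC9A3, the sodium-proton exchanger of the gut, while BSG, the surface protein basigin, had a region of mean value 227. The level of a peak says how open a site was and not how much the gene was transcribed, and a start without a region is one where no peak was called.

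Most genes of DNA replication, telomere care and repair that lie near an end had a region at their start. Of all coding genes of the terminal stretches, 68.2% had one and 57.3% had one in all 6 samples. These shares include genes outside the promoter table, which the lists leave out except on chromosome 8. Of 18 such genes, 17 had a region and 14 had one in all 6 samples, with mean values from 116 (CDC16, a subunit of the anaphase-promoting complex) to 315 (FANCA, of the Fanconi anaemia core complex). TERT, the catalytic subunit of telomerase, had a region in 2 samples only, with values of 36.9 in DMSO sample 3 and 40.3 in APH sample 3. SMG6, a nuclease of RNA decay that also binds telomeres, had none within 1 kb of its start. Of 9 genes of nucleotide supply, all 9 had a region and 6 had one in all samples, the latter close to the share of all terminal genes, with mean values from 65.5 (SLC19A1, the folate carrier) to 287 (APRT, which salvages adenine).

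The question that the design puts is whether low replication stress changed accessibility. Measured against the inner stretches or the whole genome, the terminal stretches did not separate APH from DMSO samples, and the groups overlap in each of 3 measures. Terminal peaks were 5.56%, 5.46% and 6.06% of the peaks of chromosomes 1 to 22 in DMSO samples 1, 2 and 3 and 5.29%, 5.28% and 5.73% in APH samples 1, 2 and 3, with 1 APH sample above 2 DMSO samples. The difference in log2 share was -0.07 (p = 0.3 in a two-sided exact permutation test of 3 against 3, which cannot go below 0.1). The log2 density ratio differed by -0.06 (exact permutation p = 0.3) and the log2 value ratio by -0.01 (exact permutation p = 0.8). Peak numbers themselves were 3815 ± 269 (SD, n = 3) with DMSO and 4109 ± 215 with APH (exact permutation p = 0.2), and the inner stretches had 9831 ± 818 and 11018 ± 849 (p = 0.2, exact).

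Values as deposited were lower with APH. The 3 APH means of terminal peaks lay below all 3 DMSO means, by 0.22 on the log2 scale. The inner stretches were lower by 0.21 (exact permutation p = 0.1 for each, the smallest possible). Each of these means is over the sample's own peaks. Over shared regions, those called in every sample, the terminal median log2 value changed by -0.14, with the groups apart (exact permutation p = 0.1). The inner median changed by -0.05, and there the groups overlap (exact permutation p = 0.6). The gap between these changes was not tested. The mean value was lower with APH at all 39 ends, and at 34 the 3 APH samples lay below all 3 DMSO samples. Over all 1320 windows of 2 Mb, tiled inward from the ends, 58.9% separated in that way. With values taken as deposited, limma called 31 of the 39 terminal windows lower at adjusted p below 0.05 and 727 of 1320 windows in all, while with each value taken relative to its sample's overall mean it called none of the 1320 in either direction (percent called 0 higher and 0 lower). If the values were not scaled, depth could move those of a whole sample together, and its part in this difference was not tested.

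In the fits of share and of relative value over windows of the genome, with all 6 samples and no block for the replicate numbers, no single end was called. Without DMSO sample 2, limma called 1 terminal window higher in each of these fits (0.833% of all windows higher by share and 0.0758% by value). In the limma fit of the share of peaks over 1321 windows, 0.227% of windows were called higher at adjusted p below 0.05 and 0% lower, with no terminal window among them. At unadjusted p below 0.05, limma gave 3 terminal windows as higher (7.69% of 39, against 7.65% of all windows) and 6 as lower (15.4%, against 4.09%). The smallest unadjusted p on the higher side were for 15q (log2 change 0.19 ± 0.071 SE), 11q (0.16 ± 0.060) and 7q (0.15 ± 0.057). On the lower side they were for 17p (-0.18 ± 0.065), 1q (-0.16 ± 0.062) and 3q (-0.13 ± 0.054). On 15q the peaks numbered 42, 62 and 46 in DMSO samples 1, 2 and 3 and 65, 71 and 56 in APH samples 1, 2 and 3, so the numbers overlap. On 17p they numbered 110, 124 and 120 and then 117, 120 and 115, and overlap too. The change was below 0 at 27 of the 39 ends (69.2%), against 44% of all windows, with a median of -0.05 against 0.02. Once each sample was cut to its strongest 64511 peaks, the median was 0.02 at the ends and -0.02 over all windows, with 2 ends lower at unadjusted p below 0.05 (5.13%, against 6.66% of all windows) and 4 higher (10.3%, against 5.96%). With peaks at or above the median value it stayed at -0.05 against 0.02, with no end lower or higher at that limit (against 1.83% and 4.76% of all windows), while 65.8% of ends had a change below 0, against 43.7% of all windows. In windows of at least 20 peaks the median was -0.06 against 0.01. The 6 lower windows became 3 without APH sample 1 (7.69%, against 1.89% of all windows), 0 without APH sample 2 (against 1.51%), 1 without DMSO sample 3 (2.56%, against 2.12%) and 11 without DMSO sample 2 (28.2%, against 5.98%). The 3 higher windows became 1 without DMSO sample 1 (2.56%, against 5.45%) and 2 without APH sample 2 (5.13%, against 4.39%).

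In the limma fit of relative value, 2 terminal windows were higher at unadjusted p below 0.05 (5.13%, against 9.62% of all windows) and 1 lower (2.56%, against 2.35%). The 2 became 4 without APH sample 3 (10.3%, against 13.9%) and 1 without APH sample 1, APH sample 2 or DMSO sample 3 (2.56%, against 5.15%, 4.47% and 6.29%). The 1 became 0 without APH sample 1 or APH sample 2 and 2 without DMSO sample 2 or DMSO sample 3 (5.13%, against 2.95% and 2.65%). The 3 smallest p among the higher ends were for 1q (0.17 ± 0.040 SE), 4q (0.18 ± 0.067) and 3p (0.19 ± 0.097), and among the lower for 1p (-0.10 ± 0.037), 6q (-0.09 ± 0.047) and 19q (-0.07 ± 0.038). The mean value of 1q was 106, 125 and 111 in DMSO samples 1, 2 and 3 and 109, 112 and 110 in APH samples 1, 2 and 3, overlapping where most ends separated. The end of 1q was thus among the smallest p in both fits, lower in share and higher in relative value.

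**Figure D4:**
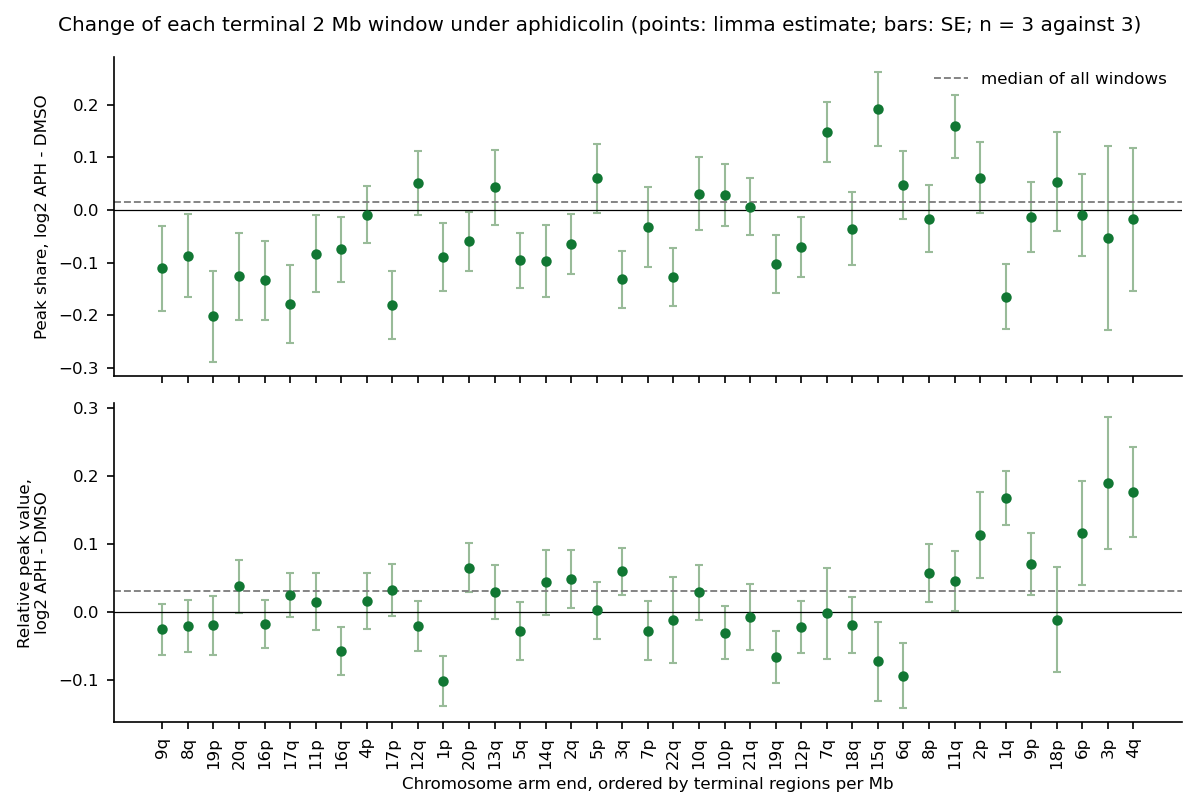
Difference between APH and DMSO on the log2 scale for the terminal 2 Mb window of each of 39 ends, for the share of peaks (top) and for the mean peak value relative to the sample (bottom). Points are limma estimates from 3 against 3 samples, bars are SE and the dashed line is the median of all windows of chromosomes 1 to 22. Most ends lie below the dashed line in the top panel, with a median of -0.05 against 0.02. No end was called after adjustment in these fits, which have no block for the replicate numbers.

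Of the 5508 regions, 2664 (48.4%) had a peak in all 6 samples and could enter the region fit, against 49.3% of inner regions. Without a block for the replicate numbers, limma on log2(value + 1) over the 50150 shared regions of the genome called 0% higher and 0% lower at adjusted p below 0.05. No terminal region passed in that fit. With the block, limma called 479 terminal regions lower (18%, against 11.1% of all) and 36 higher (1.35%, against 2.04%). At unadjusted p below 0.05 and without the block, 424 terminal regions were lower with APH (15.9%, against 10.1% of all shared regions) and 42 higher (1.58%, against 2.46%). The 424 became 182 (6.83%, against 4.12%) without APH sample 1 and 231 (8.67%, against 6.48%) without DMSO sample 3, and the 42 ranged from 15 (0.563%, against 0.925%), without DMSO sample 1, to 97 (3.64%, against 7.63%), without DMSO sample 2. With quantile normalization they were 150 (5.63%, against 4.59%), with 118 higher (4.43%, against 5.9%). The median change was -0.13 over terminal regions and -0.06 over all, as deposited. Leaving out 1 sample moved the terminal median between -0.08, without DMSO sample 2, and -0.17, without APH sample 2, and brought the median of all regions above 0 without DMSO sample 2 (0.04) and without APH sample 3 (0.01). By kind of region, the values were as follows. Of 893 terminal promoter regions, 333 (37.3%) were lower at that limit, with a median change of -0.29, and of all 12822 promoter regions 29.6% were lower, with a median of -0.24. The 3 APH values lay below all 3 DMSO values in 378 (42.3%) of the terminal promoter regions, against 37.2% of all promoter regions and 14.4% of all shared regions, and above them in 4.21% of all shared regions. In terminal gene bodies the median was -0.05 (4.88% lower, 2.18% higher), against a median close to 0 for all gene body regions (3.01% and 2.98%). Between genes it was -0.06 (5.62% and 2.41%), against 0.01 for all intergenic regions (3.71% and 3.33%). Compared with regions of the same level, the values of terminal regions differed by -0.03 on the log2 scale between APH and DMSO (0.03, -0.07 and 0.08 in DMSO and -0.04, -0.06 and 0.04 in APH, exact permutation p = 0.7), so the groups overlap.

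The 5 terminal regions of smallest p on the lower side were all at promoters, with adjusted p = 0.29 each in the limma fit without the replicate block. With the block, adjusted p in limma ranged from 0.0012 to 0.0016 for them. NDOR1, an electron carrier of iron-sulphur protein assembly, had 247, 257 and 250 in DMSO samples 1, 2 and 3 and 162, 170 and 166 in APH samples 1, 2 and 3, a log2 change of -0.60 ± 0.12 (SE). MKNK2, a kinase of the translation factor eIF4E, had 132, 124 and 124 and then 63.9, 70.4 and 87.8 (-0.78 ± 0.16). In both, every APH sample lay below every DMSO sample, as in 42.3% of terminal promoter regions. SDF4, a calcium-binding protein of the Golgi, had 206, 199 and 190 and then 126, 124 and 134 (-0.63 ± 0.13). CNOT6, a deadenylase subunit, had 183, 167 and 196 and then 115, 118 and 119 (-0.63 ± 0.13). NDUFS7, a subunit of respiratory complex I, had 124, 133 and 138 and then 78.9, 85.3 and 83.3 (-0.67 ± 0.15). At the TPRN promoter, on the same end as NDOR1 and at the same distance of 1.01 Mb, values were 518, 636 and 493 with DMSO and 461, 493 and 521 with APH, and the groups overlap.

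The 5 of smallest p on the higher side were away from promoters, and 4 of them lay in gene bodies. Adjusted p in limma was again 0.29 each without the replicate block, and ranged from 0.0018 to 0.0084 with it. The lead region was 15.7 kb from the start of LRRK1, a kinase gene on 15q (chr15:100934850-100935238), with 20.8, 16.9 and 20.1 in DMSO samples 1, 2 and 3 and 38.7, 42.7 and 34.9 in APH samples 1, 2 and 3 (0.97 ± 0.19). The lowest value of any deposited peak was 15.1, so the DMSO peaks there were near the limit of what was called. On 5q, 16.0 kb from the start of SQSTM1, the autophagy receptor p62, values were 77.8, 89.2 and 78.1 and then 130, 136 and 121 (0.65 ± 0.15). The others had PLEKHG4B of 5p (0.74 ± 0.23), DNAJB6, a chaperone (0.58 ± 0.18, 424 kb away on 7q) and ASB7, of a ubiquitin ligase (0.73 ± 0.23), as nearest start. In all 10 regions the 3 APH samples lay on the same side of the 3 DMSO samples, which is what choosing them by p favours. Over all shared regions, the 3 APH values lay below all 3 DMSO values in 14.4% and above them in 4.21%.

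Replication and repair promoters of the terminal stretches had lower values with APH, none called after adjustment in the fit without the replicate block. With the replicate numbers as a block, limma gave adjusted p = 0.0054 for POLE, 0.0063 for RTEL1, 0.0054 for FANCA and 0.0044 for RPA1. It gave 0.35 for CDC16 and 0.052 for TRIP13. That fit called 18% of all terminal regions lower, against 11.1% of all shared regions. All 14 with a region in all 6 samples had a change below 0, 13 of them at unadjusted p below 0.05, with a median log2 change of -0.38. For comparison, 91.7% of terminal and 88.2% of all promoter regions had a change below 0, and 37.3% and 29.6% were lower at that limit. POLE, the catalytic subunit of the leading-strand polymerase, had 185, 171 and 203 in DMSO samples 1, 2 and 3 and 125, 132 and 152 in APH samples 1, 2 and 3 (-0.45 ± 0.14, adjusted p = 0.29 in the limma fit without the block). RTEL1, a helicase that unwinds telomere loops, had 190, 191 and 190 and then 126, 156 and 141 (-0.44 ± 0.13). FANCA had 332, 379 and 368 and then 257, 273 and 284 (-0.40 ± 0.13). In these 3 genes the groups do not overlap, as in 42.3% of terminal promoter regions, where APH lay below DMSO. RPA1, the large subunit of the single-strand binding protein, had 170, 93.1 and 161 and then 86.4, 78.1 and 109 (-0.59 ± 0.21), and its second DMSO sample lay among the APH values. CDC16 had a change of -0.16 ± 0.15, with overlapping groups.

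The nucleotide supply genes had changes of the same sign. All 6 with a region in all samples had a change below 0, 3 at unadjusted p below 0.05, with a median of -0.36, beside the 37.3% lower and 91.7% below 0 among all terminal promoter regions. TYMS, thymidylate synthase and target of fluorouracil, had 176, 164 and 179 in DMSO samples 1, 2 and 3 and 119, 123 and 142 in APH samples 1, 2 and 3 (-0.44 ± 0.14). Its adjusted p in limma was 0.29 without the replicate block and 0.0068 with it. DTYMK, thymidylate kinase, had 171, 168 and 207 and then 143, 133 and 135 (-0.40 ± 0.14). In both the groups do not overlap, beside the same 42.3%. APRT had 283, 323 and 308 and then 277, 285 and 245, with overlapping groups (-0.18 ± 0.13).

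The same direction was found in the lists unrelated to replication. Of 25 housekeeping regions in all 6 samples, all 25 had a change below 0, 20 at unadjusted p below 0.05, with a median of -0.39. Of 21 regions of signalling and tumour genes, 20 were below 0 and 11 were lower at unadjusted p below 0.05 (median -0.39), including HRAS (-0.55 ± 0.16) and the cell cycle kinase gene CDK10 (-0.60 ± 0.14), while TNFRSF6B, a decoy receptor near RTEL1 on 20q, had 0.14 ± 0.15. Of 13 chromatin genes all 13 were below 0 and 6 were lower at that limit (median -0.31), among them TCF3 and the remodelling ATPase SMARCA2 (-0.44 ± 0.13). Of 5 epithelial genes 2 were lower (median -0.24), and of 7 tissue-restricted genes none (median -0.16), with 6 of the 7 below 0. The shares at that limit in all these lists, housekeeping and tissue-restricted included, are read beside the 37.3% of all terminal promoter regions and 29.6% of all promoter regions. The signs are read beside the 91.7% and 88.2% below 0. No list had a region higher at that limit, and none had a call after adjustment in the fit without the replicate block. With the block, limma gave adjusted p = 0.0030 for HRAS and 0.0017 for CDK10, while no tissue-restricted region was below 0.05. The median of all 50150 regions was -0.06 and that of all promoter regions -0.24, and some genes share a region, as SIRT3 and PSMD13 do on 11p and TRIP13 and BRD9 on 5p.

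**Figure D5:**
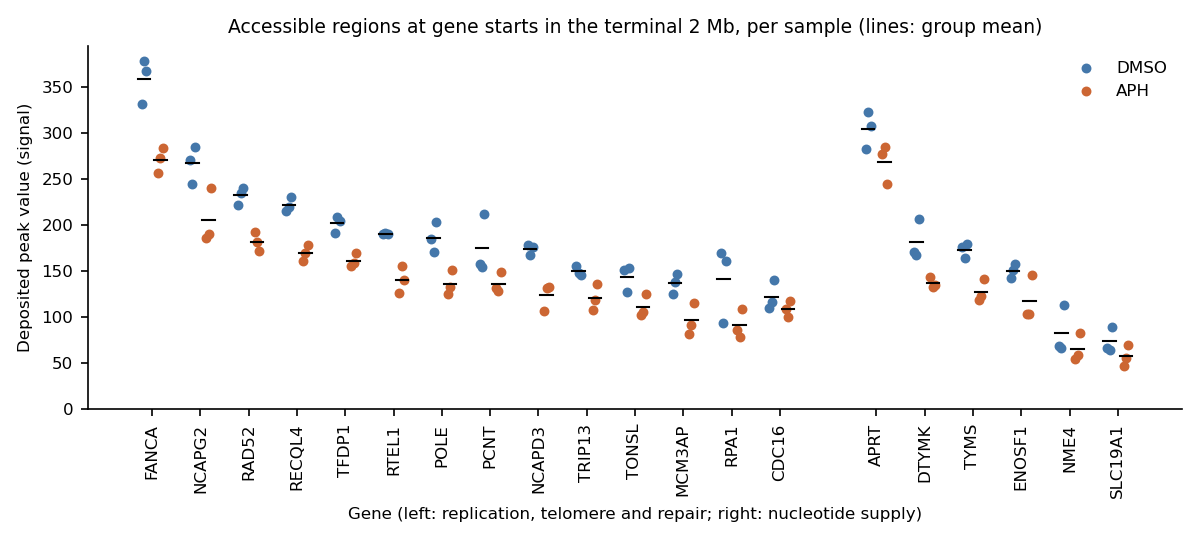
Deposited peak value (signal) of the region at the start of 14 replication, telomere and repair genes (left) and 6 nucleotide supply genes (right) of the terminal 2 Mb, in every sample. Points are samples (DMSO blue, APH orange) and short lines are group means. The APH mean lies below the DMSO mean at all 20 genes, and the groups overlap at some of them, such as RPA1 and CDC16.

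The presence of peaks was then counted. Of the terminal regions 879 (16.0%) had peaks in APH samples only and 481 (8.73%) in DMSO samples only, against 18.4% and 7.62% of inner regions. A peak in all 3 APH samples and no DMSO sample was found at 38 terminal regions (0.690%), against 1.1% of all regions of chromosomes 1 to 22, and the reverse at 9 (0.163%, against 0.187%). These shares were not tested. A peak missing from a list is one not called in that sample, and 1060 regions (19.2%) rest on 1 sample alone.

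The outermost region of an end was often weak and seen in few samples. Of the 39, 13 had a peak in all 6 samples, 7 in 1 sample and 19 in 2 to 5. Peaks were called at 21, 16 and 30 of the 39 in DMSO samples 1, 2 and 3 and at 24, 24 and 31 in APH samples 1, 2 and 3. On 9 short arms the region began below 15 kb, next to the start of the assembled sequence, and there sample 3 of each group had a peak on all 9, while the other 4 samples had one on 3 to 5. On 6 ends, 1p, 2p, 8q, 10p, 18p and 22q, the outermost region was found in sample 3 of DMSO and sample 3 of APH alone. The samples numbered 3 thus stood together in both groups at the very edge, with no such difference between treatments. The strongest outermost region was that of 12q, with 130, 184 and 140 in DMSO samples 1, 2 and 3 and 173, 211 and 137 in APH samples 1, 2 and 3, with overlapping groups. At the edge of 4q, values were 138, 151 and 124 and then 169, 178 and 152. Every APH sample lay above the DMSO samples, narrowly, with 151.95 in APH sample 3 against 151.08 in DMSO sample 2. The same order was found in 4.21% of all shared regions, and this region was picked from the 39 after its values were seen.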

How the data were processed

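ATAC-seq peak lists of 6 RKO samples, 3 DMSO and 3 APH, were used. Each list, as deposited, gives peak positions and a coverage signal, read here as an average over the peak. The authors made coverage maps from reads lengthened to 200 bp in bins of 32 nt, and their methods state no scaling to library size. Per the submitters' processing notes, BWA 0.7.12, MACS2 2.1.0 and hg38 were used, and per the methods duplicates and blacklisted peaks were removed and uniquely mapped pairs kept. Depth is unknown, so no counting interval is given.

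The chromosome ends and gene lists were chosen with earlier results of these data known. Peaks were merged by 1 bp overlap, and peaks of 1 sample within a region were averaged with their lengths as weights. Gene starts came from RefSeq GRCh38.p14, with starts for 18783 of 19122 coding genes of chromosomes 1 to 22. For 5066 of the 31312 coding and noncoding genes used, GENCODE gave the strand, and the outer boundary of the gene was the only start. A region at another start of such a gene can thus be counted as gene body. Promoters are within 1 kb of a start. Genes of the lists were read only where the promoter table holds them or they lie on chromosome 8.

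Single values per sample were compared with two-sided exact permutation tests. Shared regions and windows of 2 Mb (a mean of at least 5 peaks for the share, at least 3 peaks in every sample for the value) were compared with limma with an intensity trend on the log2 scale, a pseudocount of 1 for region values and for scaled peak shares, and Benjamini-Hochberg adjustment at 0.05 over the whole genome. The level-corrected value subtracts, in each sample, the median of 50 groups of regions of like mean. Named ends are the 5 with most and 5 with fewest regions per Mb, the 3 highest and 3 lowest in value and the 3 of smallest p in each direction in each window fit. Named regions are the 8 of highest value and the 5 of smallest p in each direction, by the nearest coding start, and named genes are those of the lists. Outermost regions, the ends with the highest density ratio and the kinds of peak were singled out after their values were seen. The steps were tested on simulated data. The software was limma 3.58.1 in R 4.3.3, and in Python 3.11.15 the packages pandas 2.3.3, scipy 1.17.1, numpy 2.4.6 and, for plots, matplotlib 3.10.9.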

Additional observations from a re-analysis of the deposited data

How the results depend on the processing

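Of 125 alternative values for the 9 results, 100 kept their direction and side of the threshold. Leaving out each sample in turn gave a mean log2 density ratio of 0.590 to 0.618 and a log2 value ratio of 0.200 to 0.213, with p = 0.0625, the smallest that 5 samples allow in the exact test. The APH minus DMSO differences then ranged from -0.105 to -0.0204 for the share, -0.0806 to -0.0282 for the density ratio, -0.0251 to 0.00658 for the value ratio and -0.0764 to -0.000491 for the level-corrected value. The called terminal windows then ranged from 0 to 1 for the share and 0 to 1 for the value, the 1 in each case higher and without DMSO replicate 2 (0.833% of all windows higher by share and 0.0758% by value), and no terminal region was called (0 to 0). The difference in value ratio was 0.00880 with peaks at or above the median value, 0.00816 with each end weighted equally and 0.00763 with promoter peaks only, and that in share was 0.0111 once every sample was cut to the same number of peaks. With promoter peaks only, the log2 value ratio was 0.0163 with p = 0.0625 in the exact permutation test. With values as deposited, 31 terminal windows were called. The causes were not tested. Quantile normalization gave 150 terminal regions lower and 118 higher at unadjusted p below 0.05 in limma (5.63% and 4.43%), with a median change of -0.04 against -0.01 over all, where the fit without it gave 424 and 42. Unknown depth limits every statement on values as deposited.

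The replicate numbers were also tried as a block. Deviations from the group means over the 50150 shared regions correlated by -0.0067 for number 1, 0.475 for number 2 and 0.513 for number 3, and not every sample correlated best with its own number, so the numbers were not taken to pair the samples. With the block, limma called 515 terminal regions, 36 higher (1.35%, against 2.04% of all) and 479 lower (18%, against 11.1%), 9 terminal windows by share, 1 higher and 8 lower of 39 (4.09% and 3.1% of all windows), and 1 by value, higher (3.03%). The paired exact permutation test gave p = 0.25, the smallest for 3 pairs, for the share and the density ratio, with all 3 differences below 0.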
